A study of Sus scrofa with 70 samples.

Results

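The genes that turn a primary miRNA transcript into a loaded miRNA were followed across 5 reproductive glands of boars. The members were chosen by name: DROSHA, DGCR8, XPO5, DICER1, TARBP2, AGO1, AGO2, AGO3, AGO4 and LIN28B. Of these 10 genes, 8 were found by gene name among 35680 genes, with 113 of 133722 transcripts, and their levels are set beside the number of miRNA entries detected in each gland, out of 743. AGO1 and AGO4 carried no name of their own in the annotation. Their exons lay under the name AGO3, so the AGO3 label is given as deposited and also split by the RefSeq exons of the 3 genes.

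Tissue came from adult boars of 12 months. One breed was the Banna mini-pig inbred line (BMI), which was bred by repeated close mating from the other, the Diannan small-ear pig (DSE). The bulbourethral, prostate and vesicular glands, the epididymis and the testis each gave 3 RNA-seq and 3 small RNA libraries per breed, and 1 long-read Iso-seq library per breed. Replicates were separate tissue samples by the study's methods, which do not say whether each came from its own boar, so that p-values measure the spread between these samples. No allele, transgene or treatment was named for either breed. The glands held mixed cells, and in bulk samples fewer cells of a type and less RNA per cell cannot be told apart.

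A primary miRNA transcript is cropped in the nucleus by DROSHA, an RNase III enzyme, with its RNA-binding partner DGCR8. The hairpin leaves the nucleus with XPO5 (exportin 5) and is diced by DICER1, which works with TARBP2. An Argonaute protein (AGO1 to AGO4) then holds the mature miRNA, and only AGO2 of the 4 is known as a strong slicer. LIN28B binds let-7 hairpins and blocks their maturation, and male germ cells are known for large shifts in small RNA content as they mature.

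On Sscrofa11.1 the transcripts summed for each member spanned chr4:2919430-3015334 (AGO2, + strand), chr7:38531318-38569596 (XPO5, -), chr7:116361625-116436487 (DICER1, -), chr14:51469126-51489529 (DGCR8, +), chr16:17565137-17848162 (DROSHA, -), chr5:18718596-18723840 (TARBP2, +), chr6:91967451-92215149 (AGO3 label, +) and chr1:71159251-71296217 (LIN28B, +).

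The libraries carried the markers of their glands, except vesicular gland, for which the list gave no high level, and DSE epididymis replicate 1, where some were low. That library had CRISP1 at 21.3 TPM and CES5A at 6.74, against at least 1100 and 486 in the other epididymal libraries. Its LCN8, at 5.78, lay inside their range of 1.51 to 9677. The study gives it the lowest transcript integrity number, a measure of RNA quality, of the RNA-seq libraries. Summed spermatid markers (6 of 6 found) lay at 24881 to 115042 TPM in testis, at 1.46 to 1006 in epididymis and at 6.86 or less elsewhere. Summed spermatocyte markers (6 of 6) lay at 148 to 533 TPM in testis and at 2.09 or less elsewhere. The epididymis epithelium list (5 of 6 found) lay at 143 to 15844 in epididymis against 30.3 or less elsewhere, and the prostate and vesicular list (3 of 4) at 88947 to 179514 in the prostate but at 9.90 to 18.4 in vesicular gland. The bulbourethral and mucous list (2 of 4) lay at 16713 to 35706 in bulbourethral gland. BMI prostate gland replicate 2 was nearest to a vesicular gland library (r = 0.968 across genes, against a median of 0.932 within its own gland), DSE testis replicate 2 had a median r of 0.906 with other testis libraries, and DSE epididymis replicate 1 one of 0.883. The part that these libraries and cell types play in the levels below was not tested, and results that change without a library are given without it too.

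Values are in TPM, a transcript abundance scale that corrects for length and depth, summed over the transcripts of a gene. Gland differences are on the log2(TPM + 1) scale, as 1 gland against the mean of the other 4, with their SE, n = 30 libraries and limma p-values adjusted over 19911 genes, and are called at an adjusted p under 0.05. In testis 47.6% of all genes tested were higher and 27.2% lower, and of the 7 members tested (all but LIN28B, which lay under the filter) 4 were higher and 0 lower. With size factors in place of the deposited scaling the testis background was 44.4% higher and 34.2% lower, and 3 members were higher and 3 lower. The median of all genes in testis moved from +0.31 to +0.12, in epididymis from +0.25 to -0.14 and in vesicular gland from -0.69 to -0.20 between the scalings. Many gland differences of genes below are therefore given under both. Where size factors are not named, a gland difference of a gene is of the deposited TPM.

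**Figure D1:**
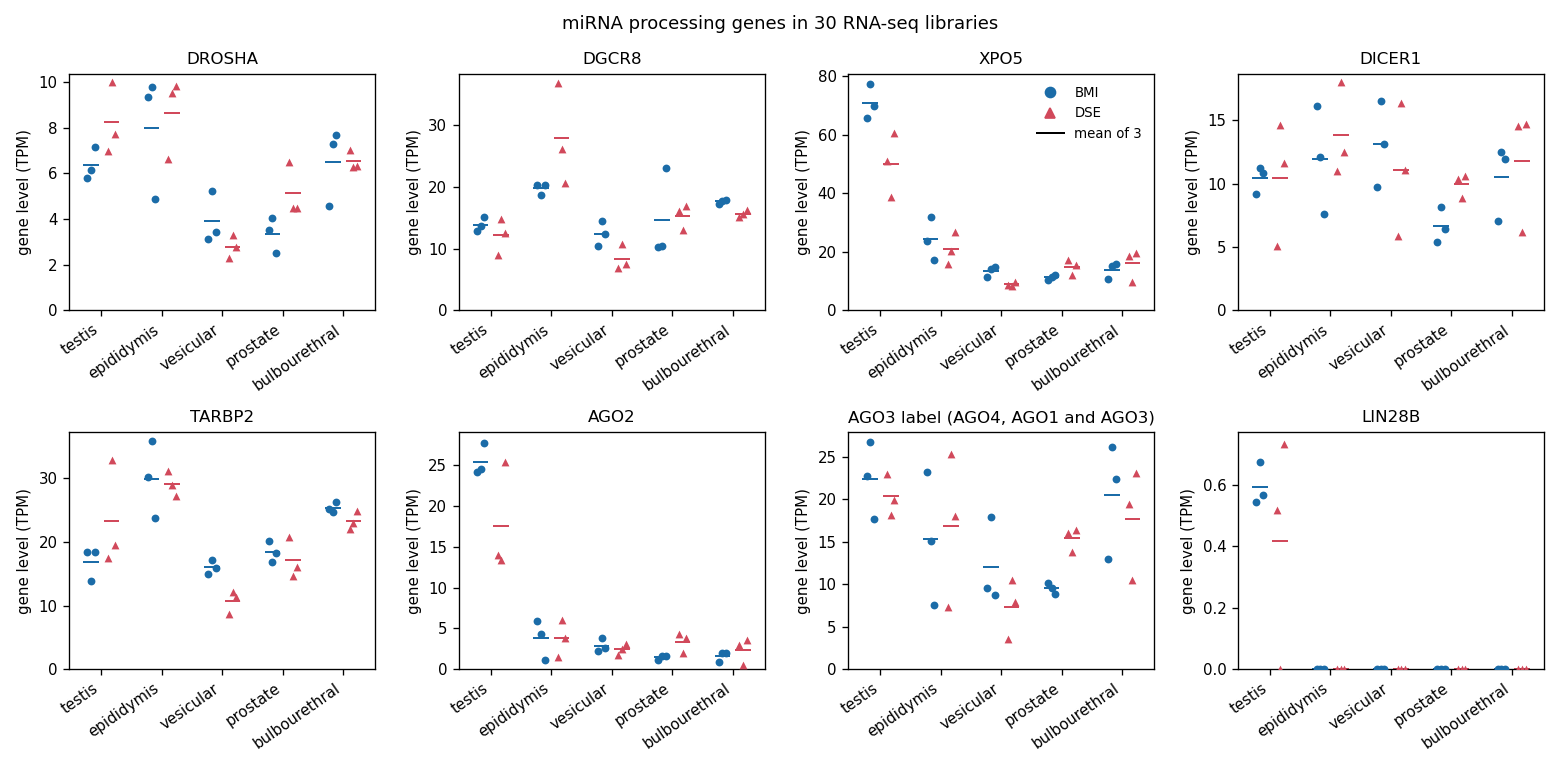
TPM of each gene (y axis, linear, own scale per panel) in the 5 glands (x axis), with 1 point per library, colour by breed and a bar at the mean of the 3 libraries of a breed. AGO2 and XPO5 lie above every other gland in all 6 testis libraries, and LIN28B is above 0 in testis only.

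AGO2 had the largest gland difference of the members. In testis its level was 13.3 TPM in the lowest library, 24.3 at the median and 27.6 in the highest. The other medians were 4.05 TPM in epididymis, 2.53 in vesicular gland, 2.01 in bulbourethral gland and 1.84 in the prostate, and no library outside testis passed 6.04 TPM, so testis did not overlap any other gland. The testis difference was +2.65 ± 0.24 (log2, limma adjusted p = 1.99e-10), or 6.27-fold on this scale, and +2.34 above the median of all genes. With size factors it was +2.43 ± 0.17 (limma adjusted p = 3.36e-12), and +2.31 above the median. Testis exceeded each gland taken alone, by +2.32 over epididymis up to +2.95 over bulbourethral gland.

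AGO2 was called lower in each of the accessory glands against a mean that includes testis. In vesicular gland, where 5.63% of genes were higher and 70.4% lower, its difference was -0.58 ± 0.24 (limma adjusted p = 0.0303). With size factors it was +0.09 there and not called. The bulbourethral difference was -1.04 ± 0.24 (limma adjusted p = 0.000687), where 23.7% of genes were higher and 30.7% lower, and with size factors it was -1.19. The prostate difference was -0.78 ± 0.24 (limma adjusted p = 0.00827), where 10.1% of genes were higher and 39.6% lower. Gland by gland in the deposited TPM, AGO2 in the prostate and in bulbourethral gland was called lower than testis and than no other gland (limma adjusted p of 0.102 or more against epididymis and between the accessory glands). With size factors 3 of 7 members were called higher in vesicular than in bulbourethral gland, and 2 than in the prostate, so this reading is of the deposited TPM alone. The prostate call was lost without replicate 2 (limma adjusted p = 0.0618) or 3 (0.0524). The prostate and bulbourethral calls were both lost with DSE libraries alone (limma adjusted p = 0.556 and 0.064) and with Ensembl transcripts only (0.382 and 0.0997). The 4 glands other than testis overlapped in AGO2 level, with 0.574 TPM in the lowest bulbourethral library and 6.04 in the highest epididymal one.

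The leading AGO2 isoform in testis had a late start. PB.12878.11, an Iso-seq isoform of 16 exons and 5211 bases at chr4:2987318-3015328 (Sscrofa11.1, + strand), held 45.2% of AGO2 TPM in the lowest testis library, 48.2% at the median and 59.1% in the highest. Its highest share elsewhere was 3.70% in epididymis, 5.38% in the prostate and 12.9% in bulbourethral gland, and it was listed at 0 in all 6 vesicular libraries. It was named because it had the highest testis level of the gene, so these shares are a description. In TPM it ran from 6.29 through 11.5 to 16.3 in testis and was at 0.257 or less elsewhere. All 56 of its full-length reads came from testis, 42 from BMI and 14 from DSE.

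The start of the coding sequence shows how this isoform differs from 2 longer ones. PB.12878.1 begins 67888 bases upstream and has a predicted reading frame of 862 codons, whereas PB.12878.11 has 647 codons. PB.12878.7, with 837 codons, begins at another start codon near that of PB.12878.1. Every codon of PB.12878.11 lay in the frame of PB.12878.1, of which 215 codons lay upstream of its start. With PB.12878.7 it shared 625 of 648 codons in frame, counting the stop codon, and 213 codons of PB.12878.7 lay upstream. The first 30 coding bases of each, read from the RefSeq genome of build Sscrofa11.1, are shown with the start codon in capitals, and each run crosses an intron, so that its coordinates span more than its length.
AGO2 PB.12878.1, chr4:2919588-2966795, + strand: ATGcggacaccaccacgtccacacgcagtg
AGO2 PB.12878.7, chr4:2920208-2966801, + strand: ATGtactcgggagccggccccgtgctcgcg
AGO2 PB.12878.11, chr4:2988887-2989419, + strand: ATGatgctgaacattgacgtctcggcaaca

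The Ensembl transcript ENSSSCT00000062448 was the leading AGO2 transcript in each of the other 4 glands, with 65.8% to 89.2% of the mean level. In testis it lay at 0, 2.36 and 3.68 TPM (lowest, median and highest), and its testis difference was -0.03 ± 0.30 (limma adjusted p = 0.94 over 64661 transcripts, of which 37.7% were higher and 22.7% lower in testis). PB.12878.1 lay at 1.84, 3.56 and 5.53 TPM in testis and at 0.810 or less elsewhere. When AGO2 was summed over Ensembl transcripts alone its testis difference was +0.44 and not called (limma adjusted p = 0.115), so that the call rests on the Iso-seq isoforms. In testis, 2 Iso-seq isoforms on the opposite strand shared 218 and 303 exon bases with AGO2, with 2 and 8 full-length reads, all from testis. The RNA-seq kit is not stated to mark strand, and without strand the reads of the overlapping bases cannot be told apart.

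XPO5, the export receptor, was the other member with a large testis difference. Its level in testis was 38.9 TPM in the lowest library, 63.0 at the median and 77.4 in the highest, against a median of 22 in epididymis, 15.6 in bulbourethral gland, 12.1 in the prostate and 10.5 in vesicular gland. The highest library outside testis had 31.8 TPM, so testis again overlapped no other gland. The testis difference was +1.95 ± 0.14 (limma adjusted p = 3.83e-12), or 3.85-fold, and with size factors +1.70 ± 0.13 (limma adjusted p = 7.51e-12). Against single glands it was +1.38 over epididymis, +1.95 over bulbourethral gland, +2.11 over prostate gland and +2.33 over vesicular gland. The Ensembl transcripts alone gave +2.18 (limma adjusted p = 7.99e-06).

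XPO5 was lower in the prostate, at -0.69 ± 0.14 (limma adjusted p = 0.000281), and in bulbourethral gland, at -0.49 ± 0.14 (limma adjusted p = 0.00522), and both calls held with size factors, at -0.57 and -0.70, against a mean that includes testis. Gland by gland in the deposited TPM, XPO5 in both was called lower than testis and epididymis, and its differences among the prostate, bulbourethral and vesicular glands were not called (limma adjusted p of 0.0812 or more). With size factors 0 of 7 members were called higher in epididymis than in bulbourethral gland, so that XPO5 call was lost. With DSE libraries alone neither the prostate nor the bulbourethral call against the mean of the other glands held (limma adjusted p = 0.257 and 0.339). Neither held with Ensembl transcripts only (limma adjusted p = 0.614 and 0.0565). Its leading testis transcript, ENSSSCT00000093721 at chr7:38531919-38569556 (- strand), lay at 16.7, 24.8 and 31.3 TPM in testis and rose by +2.21 (limma adjusted p = 2.41e-05). PB.17546.11, singled out after its values were seen, took 8.18% to 17.3% of XPO5 TPM in testis and 1.001% or less elsewhere. Its 27 full-length reads came from testis alone, 12 from BMI and 15 from DSE. It shares the reading frame of 1118 codons of PB.17546.25 and begins 386 bases downstream of it. Isoforms on the opposite strand shared 328 exon bases with XPO5.

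**Figure D2:**
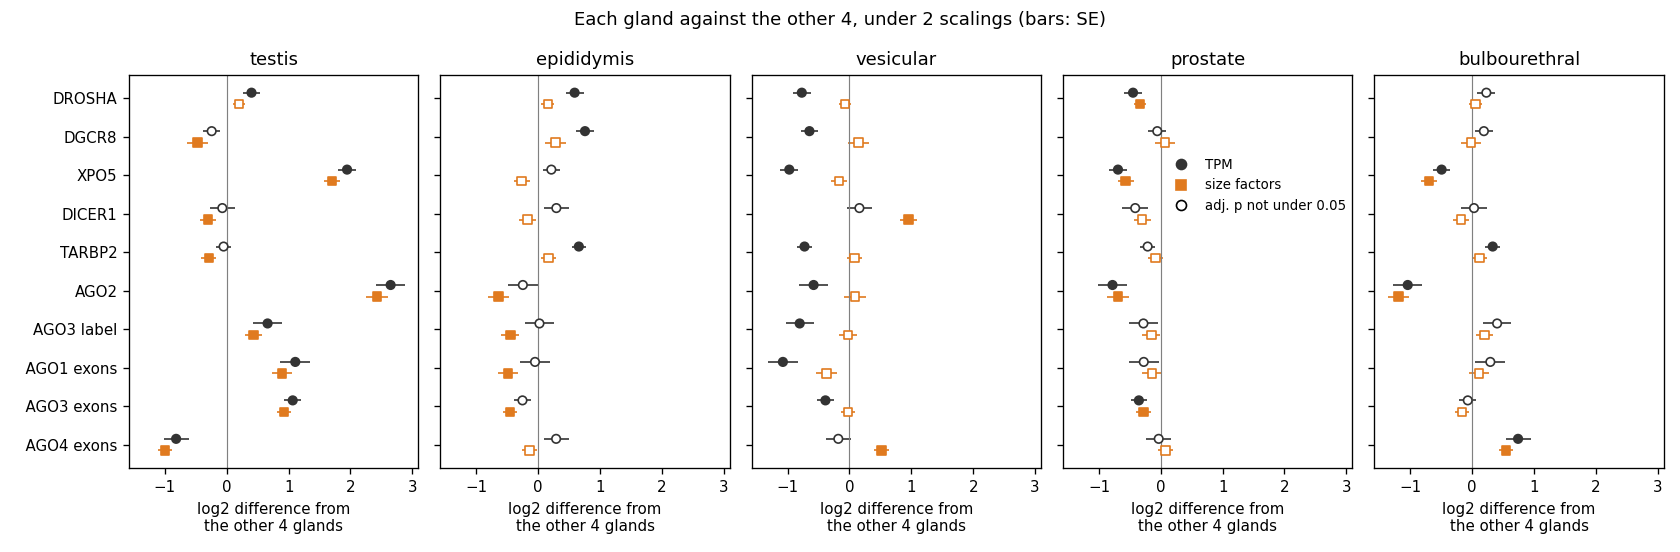
Log2 difference of each gene in 1 gland from the mean of the other 4 (x axis), with the SE as bars, for the deposited TPM (circles) and after size factors (squares), and open symbols for adjusted p not under 0.05. AGO2 and XPO5 in testis stand at +2.65 and +1.95 and move little between scalings, while most vesicular values move from below 0 to near 0, with DICER1 at +0.96, AGO4 exons at +0.52 and AGO1 exons at -0.38.

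DROSHA and DGCR8, the cropping pair, had their highest medians in epididymis. DGCR8 lay at 18.7, 20.6 and 36.9 TPM in epididymis (lowest, median, highest), against medians of 16.8 in bulbourethral gland, 14.6 in the prostate, 13.3 in testis and 10.6 in vesicular gland. The epididymal libraries lay above every testis, vesicular and bulbourethral library and overlapped prostate gland, where the highest was 23.1. DROSHA lay at 4.88, 9.43 and 9.82 TPM in epididymis, 5.78, 7.07 and 9.97 in testis, 4.57, 6.67 and 7.68 in bulbourethral gland, 2.49, 4.26 and 6.49 in the prostate and 2.32, 3.22 and 5.21 in vesicular gland. Epididymis and testis overlapped for DROSHA over most of their range. PB.8159.11, of 811 codons, led for DROSHA in testis (28.0% of the mean), epididymis (42.7%) and bulbourethral gland (42.2%), on 2 full-length reads, both of testis. PB.6197.1 led for DGCR8 in testis, with 40.7% of the mean, and had 164 full-length reads. In epididymis the leading DGCR8 transcript was PB.6197.19, with 22.4% of the mean, a 3-exon isoform of 1798 bases with no predicted reading frame and 2 full-length reads. It lay at 24.2 TPM in DSE epididymis replicate 1 and 7.89 in BMI epididymis replicate 3 and was listed at 0 in the other 4 epididymal libraries. These are parts of DGCR8 levels of 36.9 and 20.3 TPM in the 2 libraries. The separation of epididymis from other glands in DGCR8 includes them and was not tested without this isoform. DGCR8 shared 741 exon bases with isoforms on the opposite strand, of which PB.6199.1 had 319 reads, 75 from testis.

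The epididymal differences were +0.76 ± 0.14 for DGCR8 (limma adjusted p = 8.08e-05) and +0.59 ± 0.14 for DROSHA (limma adjusted p = 0.00125). TARBP2 was the third member higher there, of 7 tested, beside 38.7% of all genes higher and 19.6% lower. With Ensembl transcripts only, fewer members were called there. Summed smooth muscle markers (5 of 5 found, none at 0 in every library) lay at 2291 to 20837 TPM in epididymis against 136 to 4363 in the other glands, and leukocyte markers (5 of 5, none at 0 in every library) at 16.1 to 144 against 4.94 to 88.6, and their part in the epididymal levels was not tested. With size factors (20% of genes higher, 34.4% lower) none of the 3 was called, at +0.28 for DGCR8, +0.16 for DROSHA and +0.17 for TARBP2, while AGO2 at -0.64 and the AGO3 label at -0.45 were lower, and the latter stood at +0.02 in the deposited TPM. In testis DROSHA was +0.40 ± 0.14 (limma adjusted p = 0.0157). That call was lost with size factors (+0.20), without replicate 2 (limma adjusted p = 0.0503) or 3 (0.16) of every group, without DSE testis replicate 2 (+0.33, limma adjusted p = 0.0505) and with Ensembl transcripts alone, where it turned to -0.26. DGCR8 in testis was -0.24 and not called, but -0.48 ± 0.17 with size factors (limma adjusted p = 0.0127). DROSHA in the prostate was -0.45 ± 0.14 (limma adjusted p = 0.0123). Of the 3 members lower in the prostate (AGO2, XPO5 and DROSHA) XPO5 alone was called without replicate 2 of every group, or without replicate 3.

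DICER1, which cuts the hairpin to its mature length, had overlapping levels in all 5 glands in the deposited TPM. Its medians were 12.3 TPM in epididymis, 12.2 in bulbourethral gland, 12.1 in vesicular gland, 11.05 in testis and 8.54 in the prostate. No gland difference of DICER1 was called, with values of +0.29 in epididymis, +0.16 in vesicular gland, +0.03 in bulbourethral gland, -0.07 in testis and -0.41 in the prostate. The smallest adjusted p of these limma contrasts was 0.101, in the prostate. After size factors DICER1 in vesicular gland ran from 14.98 through 18.5 to 25.4 against 12.1 or less in any other library, and its difference was +0.96 ± 0.13 (limma adjusted p = 2.02e-06). In testis that scale gave -0.30 ± 0.13 (limma adjusted p = 0.0421), against -0.07 before. Of the 7 members tested with the AGO3 label whole, DICER1 was the only one called in vesicular gland after size factors, where 20% of genes were higher and 37.8% lower. AGO4 exons, split from that label, were also called there (+0.52).

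In the deposited TPM the other 6 members tested were lower in vesicular gland and 0 higher, in a background of 70.4% of genes lower and 5.63% higher. Those differences ran from -0.97 ± 0.14 for XPO5 to -0.58 ± 0.24 for AGO2, around the median of -0.69 for all genes. Size factors of the vesicular libraries were 0.394 to 0.973 and those of the epididymal ones 0.951 to 1.68, and after scaling none of the 6 was called lower, with DGCR8, TARBP2 and AGO2 turning to +0.15, +0.08 and +0.09. Long reads gave a separate view of DICER1. The vesicular libraries had 218 (BMI, 95% Poisson interval 168 to 278) and 141 (DSE, 103 to 189) full-length DICER1 reads per 1000000 reads assigned to deposited isoforms. The highest other library was BMI prostate gland at 144 (102 to 198).

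TARBP2, the double-stranded RNA-binding partner of DICER1, lay at 23.7, 29.6 and 35.9 TPM in epididymis, 22.01, 24.8 and 26.2 in bulbourethral gland, 13.9, 18.4 and 32.9 in testis, 14.7, 17.5 and 20.8 in the prostate and 8.65, 13.5 and 17.2 in vesicular gland. Bulbourethral and epididymal libraries lay above every prostate and vesicular library. The epididymal difference was +0.66 ± 0.12 (limma adjusted p = 4.18e-05) and the bulbourethral one +0.33 ± 0.12 (limma adjusted p = 0.0191), which was not called with size factors, at +0.12. In testis it was -0.05 in the deposited TPM and -0.29 ± 0.12 with size factors (limma adjusted p = 0.0359). Transcript ENSSSCT00000052105 led in all 5 glands, with 59.8% to 69.2% of the mean level.

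The AGO3 label covers a stretch of chr6 from 91967451 to 92215149 and 34 transcripts in the TPM table. By RefSeq exons 13 of these were of AGO1, 15 of AGO3, 3 of AGO4 and 3 of several of these genes. The coding starts below belong to isoforms that lie on RefSeq exons of AGO4, AGO1 and AGO3. Each is the first 30 coding bases of an Iso-seq isoform on the + strand, from the RefSeq genome of Sscrofa11.1, with the start codon in capitals, and each crosses an intron.
AGO4 PB.16481.3, chr6:91968336-91974329: ATGgaagcagtgggacccggacctccaact
AGO1 PB.16483.5, chr6:92038216-92043294: ATGgaagcgggaccctcgggagcagctgcg
AGO3 PB.16483.38, chr6:92081965-92102436: ATGgaaatcggctccgcaggacccgttggg

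Taken whole, the AGO3 label lay at 17.6, 21.3 and 26.7 TPM in testis, 10.4, 20.9 and 26.2 in bulbourethral gland, 7.35, 16.6 and 25.3 in epididymis, 8.89, 12.0 and 16.4 in the prostate and 3.54, 9.10 and 18.0 in vesicular gland. Testis overlapped bulbourethral gland, epididymis and vesicular gland. The testis difference was +0.66 ± 0.23 (limma adjusted p = 0.0123), and +0.43 ± 0.14 with size factors (limma adjusted p = 0.00841). The call was lost without replicate 1 (+0.51, limma adjusted p = 0.0554) or 3 (+0.73, limma adjusted p = 0.0542) of every group. With Ensembl transcripts alone it turned to -0.33 and was not called (limma adjusted p = 0.062). The split gave differences of opposite sign within the label.

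AGO1 exons lay at 12.4, 16.0 and 19.8 TPM in testis, overlapping bulbourethral gland (up to 13.2) and epididymis (up to 14.01) but not prostate gland (up to 9.39) or vesicular gland (up to 7.31). Their testis difference was +1.11 ± 0.24 (limma adjusted p = 0.000214). AGO3 exons lay at 1.64, 2.73 and 3.57 TPM in testis and at 1.27 or less in every other library, with a difference of +1.07 ± 0.13 (limma adjusted p = 1.06e-07). The leading AGO3 transcript in testis, with 46.5% of the mean, was PB.16483.34, whose frame of 214 codons is predicted to undergo nonsense-mediated decay and whose 2 full-length reads came from outside testis. AGO4 exons went the other way, at 1.99, 2.56 and 3.82 TPM in testis against medians of 8.32 in bulbourethral gland, 5.91 in epididymis, 4.34 in the prostate and 4.06 in vesicular gland, overlapping each gland but bulbourethral gland, with a difference of -0.82 ± 0.20 (limma adjusted p = 0.000815). All 3 calls held with size factors, at +0.90, +0.92 and -0.998.

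As a share of the label, AGO4 exons were 8.77% to 21% in testis and 30.8% to 57.1% in the other 24 libraries, and AGO1 exons 68.3% to 80.2% against 37.3% to 62.0%, with no overlap in either. The exact two-sided permutation p was 1.68e-06 for both (adjusted over 6 values, 2.53e-06), the smallest that 593775 splits can give. Shares within a label are tied to each other, so these are not independent results. AGO4 exons were higher in bulbourethral gland, at +0.74 ± 0.20 (limma adjusted p = 0.00335), and AGO3 exons lower in the prostate, at -0.35 (limma adjusted p = 0.0319). In vesicular gland AGO1 exons were -1.08 ± 0.24 in the deposited TPM (limma adjusted p = 0.000341) and -0.38 and not called with size factors. AGO4 exons there turned from -0.18 to +0.52 (limma adjusted p = 0.000698 with size factors).

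**Figure D3:**
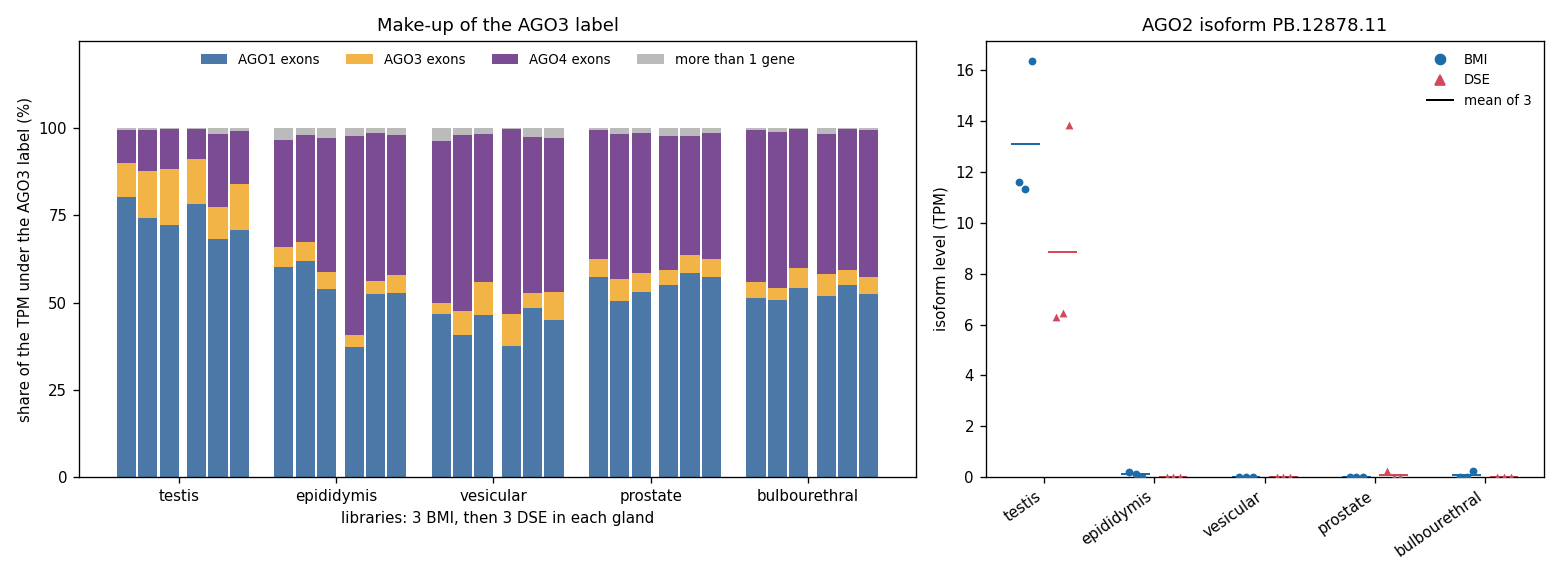
Left, the share of the TPM under the AGO3 label (y axis, %) on exons of AGO1, AGO3, AGO4 or more than 1 of them, as 1 stacked bar per library. Right, the TPM of the AGO2 isoform PB.12878.11 per library, with a bar at the mean of the 3 libraries of a breed. AGO4 exons take 8.77% to 21% of the label in testis and at least 30.8% elsewhere, and the isoform lies at 6.29 to 16.3 TPM in testis against 0.257 or less.

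AGO1 exons were led by different transcripts in testis and elsewhere. PB.16483.14, of AGO1 exons, lay at 0, 3.59 and 5.46 TPM in testis, above 0 in 4 of 6 libraries, and was listed at 0 in all other libraries, and its 5 full-length reads came from testis. The leading AGO1 transcript in testis was PB.16483.6 with a frame of 746 codons, and elsewhere the Ensembl transcript ENSSSCT00000004026. PB.16481.3 led for AGO4 in all 5 glands. PB.16483.38 of AGO3 had 195 full-length reads and was listed at 0 TPM in all 6 testis libraries although 23 of those reads came from testis. Assignment of short reads among overlapping AGO isoforms is uncertain on this evidence.

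LIN28B was near the limit of detection. In testis it was listed at 0.542, 0.672 and 0.566 TPM in BMI and at 0.516, 0 and 0.733 in DSE, and it was listed at 0 in all 24 other libraries. The exact two-sided permutation p of testis against the rest was 4.21e-05 (593775 splits, n = 6 and 24). Its relative LIN28A showed the same layout, with 0.627, 0.680 and 0.315 TPM in BMI testis, 0, 0.262 and 0.305 in DSE testis and 0 elsewhere. No full-length LIN28B read was found in any of the 10 Iso-seq libraries, where 0 reads allow up to 6.54 to 12.96 per 1000000. Both genes lay under the filter of 1 TPM in 3 libraries, so no limma value is given.

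The breeds were compared within each gland, to ask whether the inbred line differed from its source breed in these genes. With 3 libraries each, none of the 7 members was called in any gland (limma), beside 0.0218% of genes called in bulbourethral gland, 0.341% in the prostate, 1.18% in vesicular gland, 0.621% in testis and 0% in epididymis (0 of 15402, and 292 at an unadjusted p under 0.05). At an unadjusted p under 0.05, 3 of 7 members passed in the prostate, beside 33.4% of all genes there, and 0 in testis (13.6% of all genes), vesicular gland (18.4%), bulbourethral gland (5.53%) and epididymis (1.9%). In simulated libraries, 3 per breed, 0% of planted differences of 1 log2 were recovered and 67.5% of those of 2 log2. These used each gene's mean over all libraries and a spread pooled over the groups, with 200 genes changed. They do not give the power in the real testis libraries.

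The prostate values of those 3 were as follows. AGO2 lay at 1.09, 1.67 and 1.66 TPM in BMI and at 4.28, 2.01 and 3.86 in DSE (+0.79 ± 0.26, limma unadjusted p = 0.0181, adjusted p = 0.101). The AGO3 label lay at 10.2, 9.58 and 8.89 in BMI and at 16.0, 13.8 and 16.4 in DSE (+0.64 ± 0.17, limma adjusted p = 0.0859). DICER1 lay at 5.37, 8.20 and 6.43 in BMI and at 10.4, 8.87 and 10.6 in DSE (+0.53 ± 0.20, limma adjusted p = 0.121). In all 3 each DSE library was above each BMI library, while the median of all genes in this gland was itself +0.39, and the members' median after size factors was +0.12. Without replicate 2 of both breeds the 3 genes were called (+1.10, +0.71 and +0.74, limma adjusted p = 0.0275, 0.0345 and 0.0358), as were 26.5% of all genes. Without BMI prostate gland replicate 2 alone they were not (limma adjusted p = 0.0817, 0.0565 and 0.0562). Of single markers, ACTA2 lay at 113, 433 and 44.8 TPM in BMI prostate gland and at 702, 448 and 785 in DSE. AGR2 lay at 231, 168 and 41.8 against 2184, 740 and 1445. Breeds did not overlap in these, beside 39.7% of all genes, but did in HOXB13, MSMB and HBB. The part of cell types in the breed values was not tested.

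In testis, AGO2 overlapped between breeds and XPO5 did not. AGO2 lay at 24.1, 24.6 and 27.6 TPM in BMI and at 13.9, 13.3 and 25.4 in DSE (-0.57 ± 0.29, limma adjusted p = 0.421). XPO5 lay at 65.6, 77.4 and 69.7 in BMI and at 51.0, 38.9 and 60.4 in DSE (-0.51 ± 0.25, limma adjusted p = 0.4). In vesicular gland XPO5 lay at 11.3, 14.2 and 14.8 TPM in BMI and at 8.73, 8.26 and 9.73 in DSE (-0.54 ± 0.27, limma adjusted p = 0.29). TARBP2 lay there at 14.9, 17.2 and 15.9 in BMI and at 8.65, 12.1 and 11.4 in DSE (-0.55 ± 0.27, limma adjusted p = 0.282). Both were lower in every DSE library, in a gland where the median of all genes was -0.42. Over the 7 members, breeds did not overlap for 4 in the prostate (DROSHA beside the 3 above, all higher in DSE), 2 in vesicular gland (lower), 1 in testis (XPO5, lower), 1 in epididymis (DGCR8, higher) and 1 in bulbourethral gland (DGCR8, lower). Of all genes 39.7%, 27.9%, 24.7%, 5.34% and 10.7% did not overlap in these glands, in this order. Whether breed differences varied between glands was tested by an interaction term, for which 2.94% of 19911 genes were called and no member was (0 of 7; limma adjusted p from 0.375 to 0.768).

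Full-length reads gave a separate view of the members from 1 library per breed and gland, with no replicates. These are reads per 1000000 of the reads assigned to deposited isoforms, 231413 to 458697 per library, which is not the whole depth of the library, with intervals that cover counting error only. XPO5 was the most read, with 936 reads, followed by the AGO3 label with 442, DICER1 with 286, AGO2 with 242, DGCR8 with 237, DROSHA with 92 and TARBP2 with 51. AGO2 had 189 (151 to 233) per 1000000 in BMI testis and 100.5 (73.6 to 134) in DSE testis, against 15.7 to 90.7 in the other 8 libraries. XPO5 had 468 and 439 in testis and 60.5 to 375 elsewhere.

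DGCR8 had 159 per 1000000 in BMI epididymis and 104 in DSE epididymis, against 36.0 to 88.5 elsewhere. AGO4 exons had 12 reads in all and 1 in testis. AGO3 exons had 37.4 and 37.1 per 1000000 in testis, the lowest pair, against 66.9 to 143 elsewhere, whereas their short-read TPM was highest in testis. DICER1 had 79.1 per 1000000 in BMI testis and 8.74 (2.38 to 22.4) in DSE testis. TARBP2 had no read in BMI prostate gland, which allows up to 11.4 per 1000000.

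**Figure D4:**
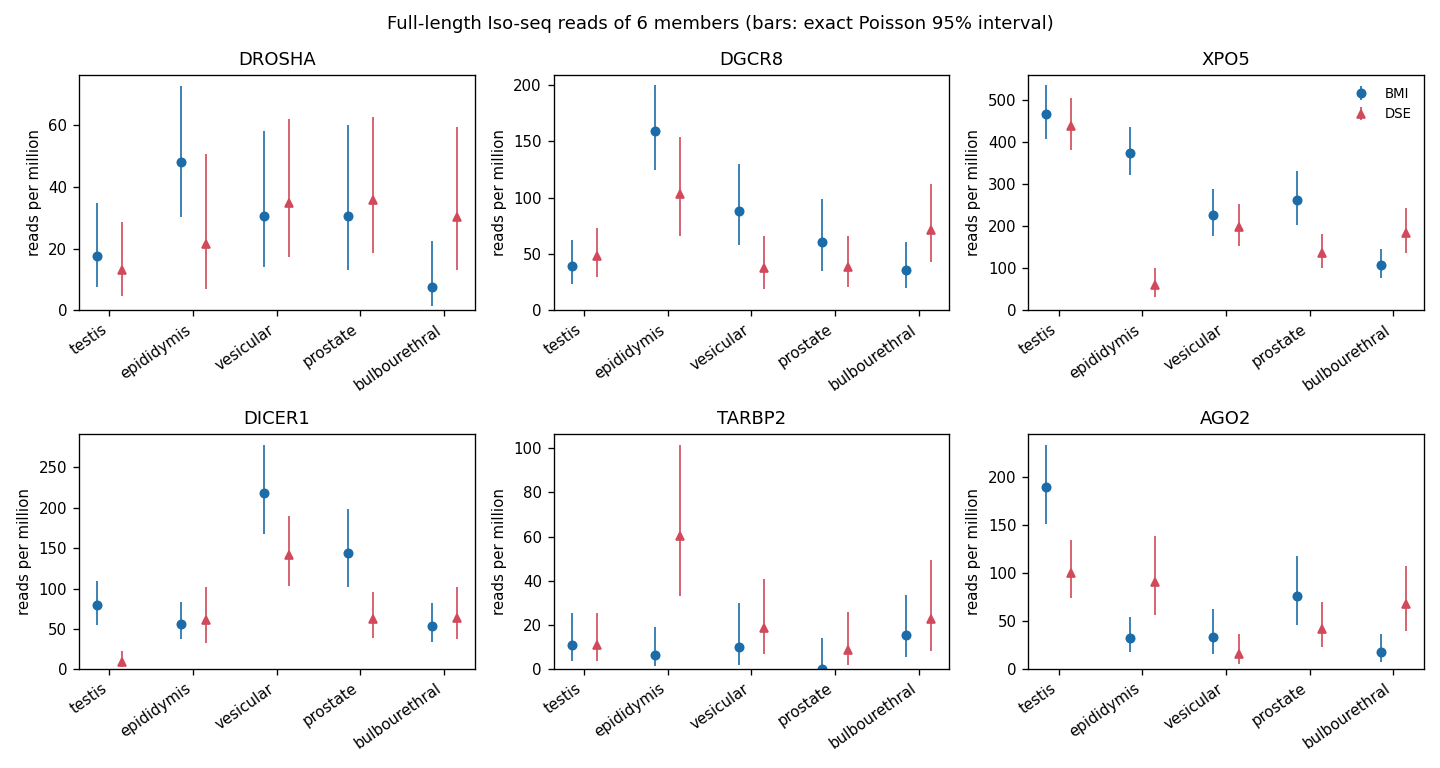
Full-length reads per 1000000 of each gene (y axis) in the 10 Iso-seq libraries (x axis, by gland and breed) for DROSHA, DGCR8, XPO5, DICER1, TARBP2 and AGO2, with exact 95% Poisson intervals of the count as bars. AGO2 and XPO5 are highest in both testis libraries and DGCR8 in both epididymal libraries.

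The number of miRNA entries above 1 RPM (reads scaled to a fixed total of miRNA reads) followed testis as well. Of 743 entries, which pair a mature miRNA with a precursor, 444 were known and the rest were predicted by the authors. Testis libraries held 453, 479.5 and 488 entries (lowest, median, highest), epididymis 331, 379.5 and 413, bulbourethral gland 333, 356 and 375, prostate gland 336, 355 and 371 and vesicular gland 308, 339.5 and 354. Over all entries testis overlapped no other gland. With known entries alone it overlapped epididymis, at 335 in BMI testis replicate 1 against 338 and 337 in BMI epididymis replicates 1 and 2.

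The mean of testis, 475 ± 13.4 (SD, n = 6), exceeded epididymis by 100.7 entries, bulbourethral gland by 121.3, prostate gland by 121 and vesicular gland by 139.7, each with an exact permutation p adjusted over 10 pairs of 0.00541. Epididymis exceeded vesicular gland by 39 (adjusted exact permutation p = 0.039), and the other 5 pairs were not past 0.05 (0.133 to 0.985). That call was lost at a minimum of 10 RPM (adjusted exact permutation p = 0.0952) and with known miRNAs only (0.0649), and at 5 RPM vesicular gland was also called below prostate gland (0.0289). Known entries averaged 349 in testis and 298.5 to 320 elsewhere, and predicted ones 125.7 against 36.8 to 54. The predicted entries were drawn from these same small RNA libraries, so their number in testis is not an independent result. With known entries alone testis exceeded epididymis by 29 (adjusted exact permutation p = 0.0162). It exceeded prostate gland by 36.3, bulbourethral gland by 42.8 and vesicular gland by 50.8 (adjusted exact permutation p = 0.00722 each). Estimated miRNA reads were 1295190 to 11814700 in testis libraries and 13066800 to 21682600 elsewhere, and with every library thinned to the smallest the means were 465 in testis and 328.5 to 367 elsewhere, with the same pairs past the threshold.

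**Figure D5:**
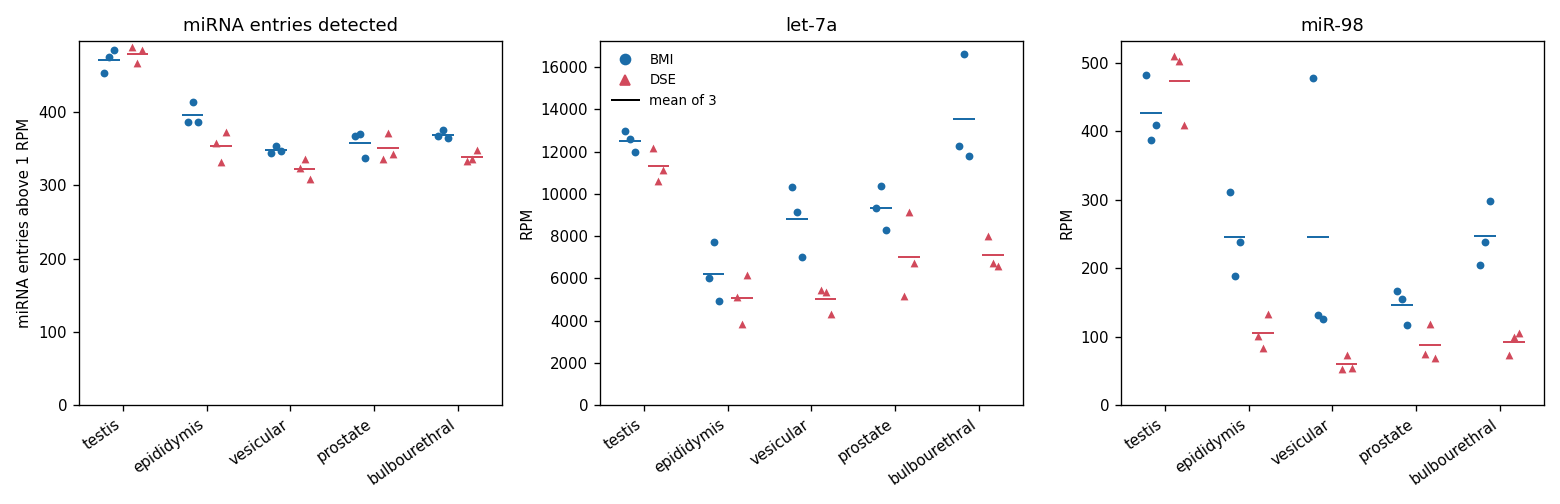
Number of miRNA entries above 1 RPM per small RNA library (y axis, linear) in the 5 glands, and the RPM of let-7a and of miR-98 in the same libraries, with 1 point per library, colour by breed and a bar at the mean of the 3 libraries of a breed. The 6 testis libraries, at 453 to 488 entries, lie above all others, while let-7a and miR-98 in testis overlap another gland.

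Across the 5 glands AGO2, XPO5 and the AGO3 label had their highest mean level in the gland with the most entries, both in the deposited TPM and with size factors. Epididymis, next in entries, had the highest mean DGCR8, DROSHA, TARBP2 and DICER1 of the deposited TPM. With size factors this held for the means of DGCR8 and TARBP2 but not for their medians, which were 14.6 in epididymis against 16.4 in vesicular gland for DGCR8 and 21.2 against 21.4 for TARBP2, and DSE epididymis replicate 1 was the highest library of both (38.8 and 32.8), whereas mean DICER1 was highest in vesicular gland (18.8 against 9.47 in epididymis) and mean DROSHA in testis (6.30 against 6.12). Vesicular gland, with the fewest entries, had the lowest mean DROSHA, DGCR8, XPO5, TARBP2 and AGO3 label of the deposited TPM, and with size factors the lowest mean of none of the 5. These are 5 points and are given as a description.

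Breeds were compared in entry number gland by gland, where the smallest p of an exact permutation test of 3 libraries against 3 is 0.1. DSE minus BMI was -41.3 entries in epididymis, -30 in bulbourethral gland and -26 in vesicular gland, each without overlap and at that smallest p of 0.1 (0.167 adjusted over the 5 glands). It was -8 in the prostate (exact permutation p = 0.9) and +8.67 in testis (exact permutation p = 0.6).

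The let-7 family bears on LIN28B, which binds its hairpins, and miR-451 bears on AGO2, since its hairpin is known to be cut by AGO2 in place of DICER1. The mature sequences were read from RefSeq on Sscrofa11.1, and the seed (bases 2 to 8), which pairs with targets, is in capitals. The let-7 members and miR-98 share the seed GAGGUAG, and miR-451 has another.
ssc-let-7a, chr3:43465677-43465698, + strand: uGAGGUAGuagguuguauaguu
ssc-let-7f, chrX:46303299-46303320, - strand: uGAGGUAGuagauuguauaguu
ssc-let-7g, chr13:34406195-34406216, - strand: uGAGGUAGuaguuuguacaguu
ssc-let-7i, chr5:27252807-27252825, + strand: uGAGGUAGuaguuugugcu
ssc-miR-98, chrX:46302436-46302457, - strand: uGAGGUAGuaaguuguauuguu
ssc-miR-451, chr12:45088838-45088859, - strand: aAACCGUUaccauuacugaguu

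The letters GGAG, a motif known for LIN28 binding in the hairpin loop, were searched on the hairpin strand only. They occurred in 9 of 10 let-7 and miR-98 hairpins (90%), with MIR98 as the exception, in 119 of all 315 RefSeq pig hairpins (37.8%), and not in MIR451. It was the only motif searched, and a match describes letters, not binding.

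Of 14 let-7, miR-98 and miR-451 entries, 13 were higher in testis and 0 lower, in a background of 77.9% of 526 entries higher. The summed RPM of let-7 5p arms and miR-98 was 56715 to 72412 in testis (median 68539), 32340 to 68175 in bulbourethral gland, 23463 to 41753 in the prostate, 19672 to 38040 in epididymis and 19069 to 46750 in vesicular gland. Testis overlapped bulbourethral gland only.

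Single entries differed in size. let-7a lay at 10614, 12084 and 12958 RPM in testis and differed by +0.70 ± 0.15 (limma adjusted p = 8.92e-05 on log2(RPM + 1)). let-7g lay at 12527, 15697 and 16493 RPM and differed by +1.47 ± 0.18 (limma adjusted p = 2.96e-08), above every library of the other glands. miR-98 lay at 388, 446 and 510 RPM, against 478 or less elsewhere, and differed by +1.77 ± 0.22 (limma adjusted p = 2.64e-08). let-7i-5p was the exception, at 6821 to 11497 RPM in testis and 8493 to 15714 in bulbourethral gland, with +0.21 and no call (limma adjusted p = 0.242).

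Of the same 14 entries 8 were lower in epididymis, beside 27.8% of all entries, and 9 in vesicular gland, beside 56.7%. Without replicate 1 of every group 3 were lower in epididymis, and without replicate 2 or 3, 5 were, and in vesicular gland 6, 7 and 6 without replicates 1, 2 and 3. miR-451 lay at 1894, 3791 and 5933 RPM in testis, 547, 2272 and 4428 in epididymis, 558, 1369 and 3106 in the prostate, 488, 1285 and 2879 in vesicular gland and 237, 573 and 1573 in bulbourethral gland. Its testis difference was +1.65 ± 0.37 (limma adjusted p = 0.000184), and testis overlapped every gland but bulbourethral gland. miR-451 is abundant in red blood cells. Summed erythrocyte markers (3 of 4 found, none at 0 in every library) lay at 10.6 to 88.4 TPM in testis and at 40.2 to 2679 in the other glands, and their part in the miR-451 level was not tested.

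The wider pathway was taken as a list of 40 further genes, of which 37 were tested. In testis 18 were higher and 3 lower, beside 47.6% and 27.2% of all genes (17 and 9 with size factors, beside 44.4% and 34.2%), with a list median of +0.43 against +0.31 for all genes. The largest rises were RAN, the GTPase that drives nuclear transport, at +3.02 ± 0.38 (limma adjusted p = 8.92e-08), and FXR1, an RNA-binding relative of FMR1, at +2.61 ± 0.20 (limma adjusted p = 1.07e-11). The largest falls were HNRNPA1, an RNA-binding protein that assists some primary miRNAs, at -1.39 ± 0.31 (limma adjusted p = 0.000308), and the RNA editing enzyme ADARB1, at -0.65 ± 0.27 (limma adjusted p = 0.0315). By role, 7 of 11 genes of the silencing complex were higher, 5 of 7 of decay and 4 of 7 helpers of the nuclear step, where 1 was lower, and 0 of 3 Dicer partners and editing enzymes were higher and 2 lower. With size factors the silencing complex had 6 higher and 2 lower and the decay genes 5 and 1. These groups are small and their counts are a description beside the 47.6%.

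In the other glands the counts changed with the scaling. In vesicular gland 1 of 37 was higher and 29 were lower, beside 5.63% and 70.4% of all genes (10 and 10 with size factors, beside 20% and 37.8%), and the one higher was DIS3L2, the exonuclease that degrades tailed let-7 hairpins, at +1.24 ± 0.18 (limma adjusted p = 2.30e-06). In epididymis 17 were higher and 1 lower, beside 38.7% and 19.6% of all genes (10 and 8 with size factors, beside 20% and 34.4%). In the prostate 0 were higher and 14 lower, beside 10.1% and 39.6% (2 and 12 with size factors, beside 16% and 36.1%). In bulbourethral gland 6 were higher and 3 lower, beside 23.7% and 30.7% (3 and 11 with size factors, beside 18.7% and 38.2%). DIS3L2 was lower in the prostate, at -1.22 ± 0.18, and in bulbourethral gland, at -0.998 ± 0.18.

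The genes whose log2(TPM + 1) pattern was most like that of a member over the 30 RNA-seq libraries were named by Pearson r among 13879 genes, as a description in which the points share gland and library. For AGO2 these were ZCCHC2 (r = 0.966) and ZNF217 (0.965), and for XPO5 FZR1 (0.978) and NMNAT2 (0.977). For the AGO3 label they were SMURF2 (0.963) and DDX3X (0.960), for DROSHA TRMT61B (0.951) and POLR2B (0.942), and for TARBP2 WDR45B (0.939) and ARL10 (0.935). For DGCR8 they were AXIN1 (0.908) and ERMARD (0.899), and for DICER1 GPATCH8 (0.885) and ANKRD17 (0.880). AGO2 and XPO5 themselves had r = 0.924, and 0.921 after size factors.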

How the data were processed

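The authors deposited TPM per transcript from salmon 1.9.0 (per the submitters' processing notes, which also name STAR 2.7.10a, GSNAP and Bowtie 1.3.1) on Sscrofa11.1 (susScr11), with Ensembl 107 and Iso-seq isoforms merged into 1 annotation. They deposited RPM per miRNA entry from miRDeep2 and raw counts of full-length Iso-seq reads per isoform. TPM carry no read counts, so RNA-seq depth was not computed here, and the depth per library that the study gives was not used. Iso-seq libraries held 231413 to 458697 full-length reads assigned to deposited isoforms, and small RNA libraries an estimated 1295190 to 21682600 miRNA reads.

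TPM were summed by the gene name of the annotation. The AGO3 label was split by RefSeq exons. Genes with at least 1 TPM in 3 libraries were fitted with limma 3.58.1 (R 4.3.3; trend, pseudocount 1, Benjamini-Hochberg over all genes tested), with a mean for each breed and gland, and within each gland for breeds. miRNA entries were fitted alike on log2(RPM + 1), entry numbers compared by exact permutation, and Iso-seq reads given per 1000000 with exact Poisson intervals. Scripts used matplotlib 3.10.9, scipy 1.17.1, pandas 2.3.3 and numpy 2.4.6 under Python 3.11.15. Size factors were medians of ratios over genes above 0 in every library. The fits were tested on data simulated with a spread pooled over the groups, where 73% of planted differences of 1 log2 between testis and the other glands were recovered.

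For 5234 of 110996 isoforms the deposited Iso-seq total differed from the sum of the 10 libraries (for DICER1 171 against 286), and library sums were used. The labels name rRNA depletion and the study's methods poly-T beads for RNA-seq. All members were named, with the 2 largest rises and falls of the fixed pathway list and the 2 genes most like each member. The members and lists were chosen with earlier results of these data known. Alternatives were scaling, pseudocount, filter, gene sum, threshold, replicate block, single breeds and left-out libraries.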

Additional observations from a re-analysis of the deposited data

Results flagged for a closer look

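In 2 of 56 sets of 6 libraries of a gland, 1 library lay far from the others (Dixon's test of the gap to the nearest library over the whole range), where chance gives about 1 in 20. Both were DSE testis replicate 2. Its TARBP2 level was 32.9 TPM, against 13.9 to 19.6 in the other 5 testis libraries. Its LIN28B was listed at 0 TPM, against 0.516 to 0.733 in the others. The same library had the lowest median correlation of the testis libraries, 0.906, and INSL3, a Leydig cell hormone, as its highest gene. Without it the testis differences of AGO2 and XPO5 were +2.73 and +2.03, both called.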

How the results depend on the processing

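Of the single members and miRNAs, 977 alternative values stayed on their side of the threshold, 69 lost the call, 16 gained one and 8 reversed with a call on one side. Of the 977, 66 were not called either way and had the other sign, 13 of them with size factors (such as XPO5 in epididymis, -0.27), 13 with Ensembl transcripts only, 31 with libraries left out and 9 with single breeds. Reversed with a call were, with Ensembl transcripts only, DROSHA in testis (-0.26), the AGO3 label in testis (-0.33) and AGO2 in vesicular gland (+0.078), and with size factors the AGO3 label in epididymis (-0.45) and, in vesicular gland, DGCR8 (+0.15), TARBP2 (+0.083), AGO2 (+0.092) and AGO4 exons (+0.52). The causes were not tested, beyond that Ensembl sums leave out the Iso-seq isoforms.

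The members called were 4, 3, 6, 3 and 3 for testis, epididymis and the vesicular, prostate and bulbourethral glands, in this order. With Ensembl transcripts only they were 1, 1 and 3 in the first 3 glands and 0 in the prostate, and with a log2 difference of at least 1 they were 2, 0, 0, 0 and 1. With size factors 1 was called in vesicular gland, DICER1, which was none of those 6. With BMI libraries alone 2 were called there, and with DSE libraries alone 0 in the prostate and 0 in bulbourethral gland. Leaving out each replicate gave 2 to 5, 3, 5 to 6, 1 to 3 and 2 to 3 (2 in testis without replicate 3, and 1 in the prostate without replicate 2 or 3), and for the breeds in the prostate 0 to 3.

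Testis exceeded the other glands in miRNA entries by 98.75 to 101.75 (epididymis), 131.25 to 146.5 (vesicular), 109.5 to 131.5 (prostate) and 118 to 124.25 (bulbourethral) without 1 replicate, with adjusted exact permutation p of 0.0571 to 0.0714. Each of these testis pairs had the smallest unadjusted exact permutation p that 70 splits of 4 libraries against 4 give, 0.0286. The adjusted values therefore do not measure a weaker excess. Epididymis minus vesicular gland was 32.5 to 44.75 (adjusted exact permutation p of 0.0571 to 0.286), and was also not called at a minimum of 10 RPM (28) or with known miRNAs only (21.8). Vesicular minus prostate gland was called at a minimum of 5 RPM (-18.7), and vesicular minus bulbourethral gland with predicted miRNAs only (-10.3), an alternative chosen after seeing the data, as were the split of the AGO3 label and the leaving out of the 3 libraries that stood apart. let-7, miR-98 and miR-451 entries called without 1 replicate were 11 in testis, 3 to 5 in epididymis, 6 to 7 in vesicular gland, 0 to 6 in the prostate (0 without replicate 3, 1 without replicate 1) and 3 in bulbourethral gland, against 13, 8, 9, 5 and 7 with all libraries.

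Replicate numbers were not taken to pair the samples. Correlations of same-numbered deviations were -0.555 to 0.390 in RNA-seq and -0.605 to 0.552 in small RNA, and all 3 exceeded 0.1 in 2 of 25 pairs of groups in RNA-seq (DSE vesicular gland with DSE epididymis and with DSE testis) and in 3 of 25 in small RNA (BMI prostate with BMI bulbourethral gland, DSE testis with DSE vesicular gland, and BMI with DSE testis), but in no pair of glands did they do so in both breeds, and for the breeds in testis 3 pairs are too few for an exact paired test to reach 0.05. With the replicate block the entry differences were 100.667, 139.667, 121 and 121.333 for testis and 39 for epididymis minus vesicular gland, with an adjusted exact sign-flip permutation p of 0.0781, and the block left the number of members called within 1.5 times. The testis pairs had the smallest unadjusted exact sign-flip permutation p that 64 flips give, 0.03125. edgeR on reads recovered from RPM was not run, because not all values of every library came out whole (99.0% to 100%). Iso-seq counts below about 10 limit TARBP2, DROSHA and AGO4 per library.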
